A study of Rattus norvegicus with 6 samples.

Results

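The fibrillar collagen genes Col1a1, Col1a2 and Col3a1 and the genes of the matrix glycoproteins and the crosslinking enzyme around the fibrils, Fn1, Sparc, Lox and Postn, were followed in cultured endothelial cells of the rat abdominal aorta. These 7 genes were taken by their rat Ensembl identifiers from a table of 32879 rows, and all 7 were present and carried enough counts to be tested. The study set 3 libraries titled WT against 3 titled KO, to map expression differences tied to the microRNA miR-337-3p. The identifiers are ENSRNOG00000003897 (Col1a1), ENSRNOG00000011292 (Col1a2), ENSRNOG00000003357 (Col3a1), ENSRNOG00000014288 (Fn1), ENSRNOG00000012840 (Sparc), ENSRNOG00000014426 (Lox) and ENSRNOG00000012660 (Postn). All 6 libraries came from primary endothelial cells grown on fibronectin, and full-length cDNA was sequenced. The labels give no strain, age or animal number.

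The perturbation is described in different ways. The titles and the design of the series name a knockout of miR-337-3p, and the genotype field names a knockdown for the KO libraries and WT for the others. The treatment text is the same for all 6 libraries and states that cells received 100 nM of an inhibitor against the human form of this microRNA, so what the WT cells received is not settled by the labels. The groups are called WT and KO as in the titles. Nothing in the labels says that replicates came from separate animals or cultures, so the p-values measure only the spread between these libraries, which may be technical.

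Fibrillar collagens are secreted as long chains that wind into a triple helix, assemble into fibrils and give the vessel wall its tensile strength. Col1a1 and Col1a2 encode the chains of type I collagen, and Col3a1 encodes type III collagen, which is prominent in distensible tissues such as arteries. Fibronectin (Fn1) is a cell-adhesive glycoprotein on which collagen fibrils are laid down, Sparc is a collagen-binding matricellular glycoprotein, periostin (Postn) is a matricellular protein that binds collagen and fibronectin, and lysyl oxidase (Lox) starts the covalent crosslinks of collagen and elastin. In the vessel wall these genes are known mainly from smooth muscle cells and fibroblasts, and endothelial cells express several of them in culture. Marker genes of endothelial or other cell types are not analysed here, because the table carries no gene symbols, so the part of other cells in the values was not tested.

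The microRNA named by the labels is shown first, since it defines the comparison. Its mature rat sequence, from RefSeq on GRCr8 (chr6:134321201-134321223, plus strand), is given 5′ to 3′ with the seed, bases 2 to 8, in capitals. The seed is the stretch through which a microRNA chiefly pairs with messenger RNAs.

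rno-miR-337-3p: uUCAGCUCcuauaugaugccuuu

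Whether the transcripts of the 7 genes hold matches to this seed is not analysed here.

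Of the 7 genes 4 passed the test between KO and WT, or 57.1%, beside 21.2% of all 12852 rows tested and 27.9% of the 3767 among them that averaged 200 counts or more. Postn averaged 38.8 counts and lies outside this last class. The 7 genes were chosen with earlier results of these data known, so the shares are only a description. The test was edgeR's quasi-likelihood test with a threshold of 0.05 on p adjusted over all tested rows by the Benjamini-Hochberg method. Col1a1, Col1a2 and Col3a1 rose, where 11.0% of all tested rows rose. Postn fell, where 10.3% of all tested rows fell. Fn1, Sparc and Lox did not pass. The median log2 fold change, KO minus WT, was 0.16 over the 7 genes, 0.40 over the 3 collagens and -0.10 over the 4 other genes, beside -0.00332 over all tested rows. In bulk RNA, a change in the number of cells that express a gene and a change in RNA per cell cannot be told apart.

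CPM, used for all levels below, is a gene's count as a share of the library total, scaled to 1000000 counts. They are not divided by transcript length, so levels of different genes are not compared. Where counts of several genes are summed or set in a ratio below, transcripts of different length may not weigh equally. Only the difference between WT and KO is read from such sums and ratios.

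**Figure D1:**
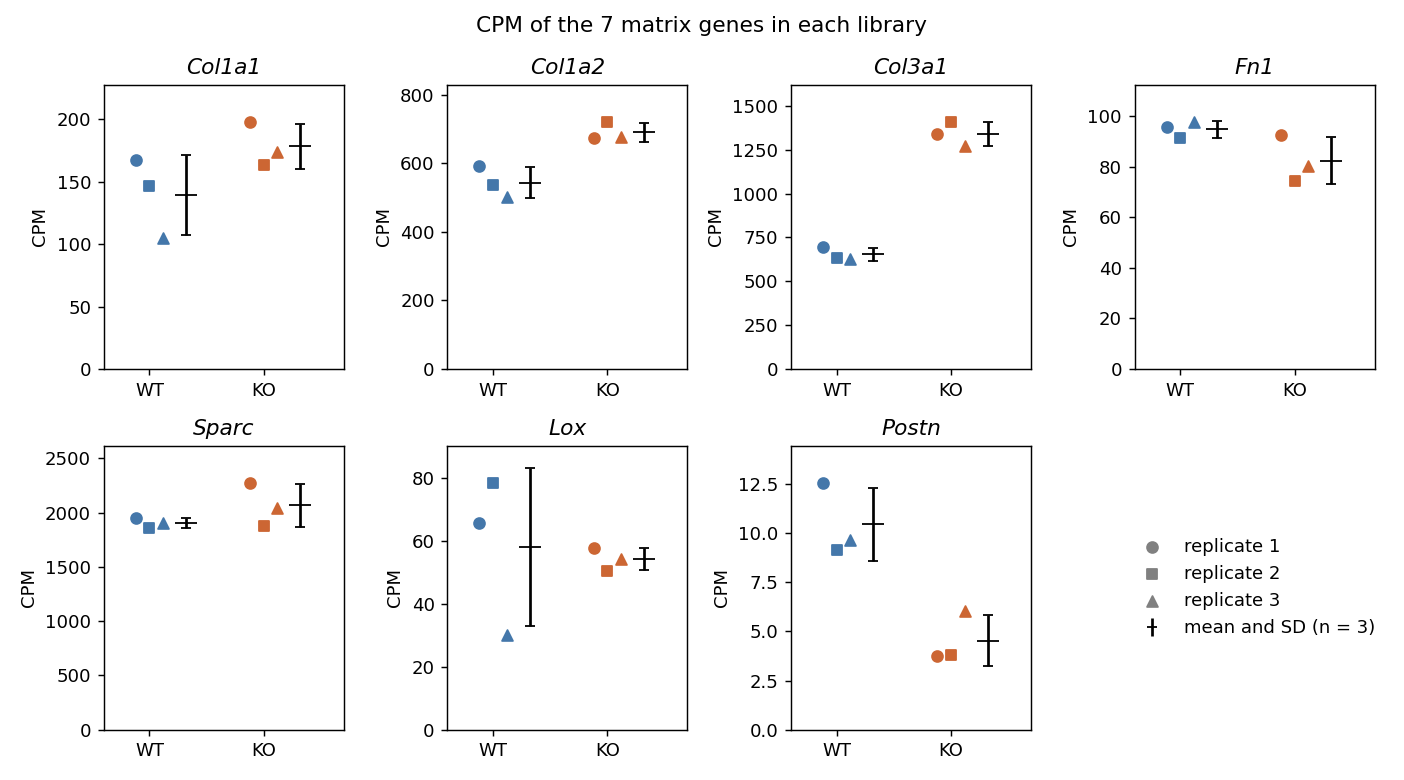
Level of each of the 7 genes in CPM (counts per 1000000 counts of the library, vertical axis from 0) in the 3 WT libraries (blue) and the 3 KO libraries (orange), with the marker shape giving the replicate number and black bars the mean and SD of each group. The groups are apart for Col1a2, Col3a1 and Postn and overlap for the other 4 genes, and the Lox value of WT replicate 3 lies at 30.1 CPM, below the other 5 libraries.

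The CPM ranges of the groups were apart for 3 of the 7 genes. KO lay above WT in 2, Col1a2 and Col3a1, beside 14.9% of all tested rows, and below WT in 1, Postn, beside 20.5%. CPM is scaled by the library total alone. With that scaling the median log2 fold change over all tested rows was -0.0493, beside -0.00332 in the fit used for the calls. CPM therefore sets KO slightly lower than that fit does, which bears on these 2 shares.

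Col3a1 had the largest rise of the 7 genes. Its level was 698, 634 and 628 CPM in WT replicates 1, 2 and 3, and 1342, 1409 and 1271 CPM in KO replicates 1, 2 and 3. Every KO library lay far above every WT library, and the spread within each group was small. The mean was 653 ± 38.8 CPM in WT and 1341 ± 68.9 CPM in KO (SD, n = 3 each). The fit gave a log2 fold change of 1.08 ± 0.08 (SE), a rise of 2.12-fold with a 95% interval of 1.89 to 2.37 (adjusted p = 5.4e-10, edgeR). Among all tested rows 6.01% had a larger fitted fold in either direction. Omitting any single library left the log2 fold change of Col3a1 between 1.05 and 1.12, and the call held.

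Col1a2, which encodes the α2 chain of type I collagen, rose less. It stood at 592, 538 and 502 CPM in WT replicates 1, 2 and 3, and at 674, 721 and 676 CPM in KO replicates 1, 2 and 3. The lowest KO library, replicate 1, was above the highest WT library. The means were 544 ± 45.0 CPM in WT and 690.4 ± 26.5 CPM in KO (SD, n = 3 each). The log2 fold change of 0.39 ± 0.08 (SE) corresponds to a 1.31-fold rise with a 95% interval of 1.17 to 1.47 (adjusted p = 0.00075, edgeR). A fitted fold larger than this, in either direction, was found in 27.4% of all tested rows.

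Col1a1, which encodes the α1 chain of the same collagen, rose by a similar fitted amount with a wider spread. Its level was 167, 147 and 105 CPM in WT replicates 1, 2 and 3, and 198, 163 and 174 CPM in KO replicates 1, 2 and 3. The groups overlap, because WT replicate 1 lies above KO replicate 2, while WT replicate 3 is the lowest library of all. The mean was 140 ± 32 CPM in WT and 178 ± 17.8 CPM in KO (SD, n = 3 each). The log2 fold change reached 0.40 ± 0.12 (SE; adjusted p = 0.015, edgeR). This is a 1.32-fold rise with a 95% interval of 1.12 to 1.56. The call rests on single libraries: without WT replicate 3 it was 0.25 on the log2 scale (adjusted p = 0.079, edgeR), and without KO replicate 1 it was 0.33 (adjusted p = 0.071).

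The coefficient of variation (CV) over the WT libraries was 22.9% for Col1a1, 8.27% for Col1a2 and 5.94% for Col3a1. The common biological CV over all tested rows was 8.4%, which is another measure. It comes from the edgeR fit of both groups and leaves out counting error, which the CVs of the genes include. In all 3 collagen genes WT replicate 1 was the highest of the WT libraries and replicate 3 the lowest. In KO the order differed, with replicate 1 highest for Col1a1 and replicate 2 highest for Col1a2 and Col3a1.

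Together the 3 collagen genes took 0.146%, 0.132% and 0.123% of all counts in WT replicates 1, 2 and 3, and 0.221%, 0.229% and 0.212% in KO replicates 1, 2 and 3. The means were 0.134% ± 0.0112 in WT and 0.221% ± 0.0086 in KO (SD, n = 3 each), a difference of 0.0873 percentage points. All 7 genes together took 0.340% ± 0.0160 of WT counts and 0.442% ± 0.0197 of KO counts (SD, n = 3 each), a difference of 0.101 percentage points. Col3a1 alone differed by 0.0688 percentage points, so most of the rise in both sums lay in this gene.

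**Figure D2:**
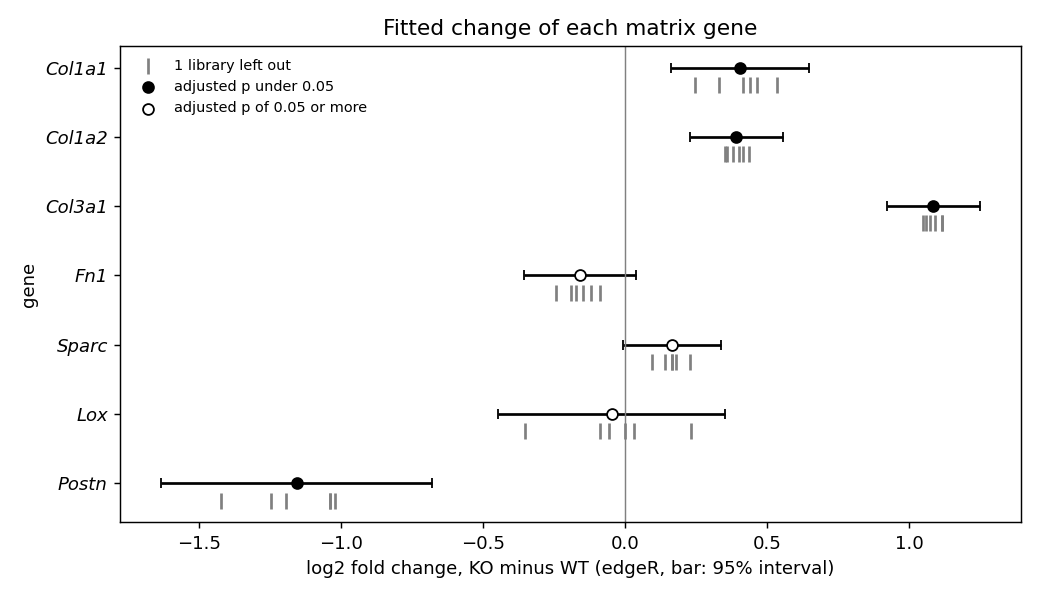
Fitted log2 fold change of each gene, KO minus WT (horizontal axis), with its 95% interval from edgeR; filled points passed an adjusted p of 0.05 and open points did not, and grey ticks give the value with 1 library left out. Col3a1 lies at 1.08 and Postn at -1.15, Col1a1 and Col1a2 lie near 0.40, and the ticks of Lox fall on both sides of 0.

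The changes of the collagens were compared with each other through ratios of counts within a library, where library size cancels and transcript length is common to the groups. Across the 3 ratios tested, a two-sided exact permutation test over 20 arrangements of the libraries cannot give a p below 0.1, so none could pass 0.05. The ratio of Col3a1 to Col1a1 counts was 4.17, 4.32 and 6.0 in WT replicates 1, 2 and 3, and 6.78, 8.63 and 7.31 in KO replicates 1, 2 and 3. All KO values lay above all WT values. The mean ratio was 4.83 ± 1.02 in WT and 7.57 ± 0.955 in KO (SD, n = 3 each), with an exact permutation p of 0.1 and, adjusted over the 3 ratios, of 0.3.

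Col3a1 was also set against Col1a2, a ratio added after the values were seen and therefore given with no test. It was 1.18, 1.18 and 1.25 in WT replicates 1, 2 and 3, and 1.99, 1.95 and 1.88 in KO replicates 1, 2 and 3, with means of 1.20 ± 0.0412 and 1.94 ± 0.0568 (SD, n = 3 each). These ratios varied less within groups than those to Col1a1. Col3a1 made up 48.9% ± 1.66 of the counts of the 3 collagens in WT and 60.7% ± 0.759 in KO (SD, n = 3 each).

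The chains of type I collagen had overlapping ratios to each other in WT and KO. Col1a2 to Col1a1 was 3.54, 3.67 and 4.80 in WT replicates 1, 2 and 3, and 3.41, 4.42 and 3.89 in KO replicates 1, 2 and 3. The highest value was that of WT replicate 3, the library with the lowest Col1a1. The mean ratio was 4.0 ± 0.697 in WT and 3.90 ± 0.507 in KO (SD, n = 3 each), with an exact permutation p of 0.8 before and after adjustment. The difference, -0.0973, was smaller than the spread between libraries, and its sign turned without WT replicate 3 (0.303) or KO replicate 1 (0.152).

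**Figure D3:**
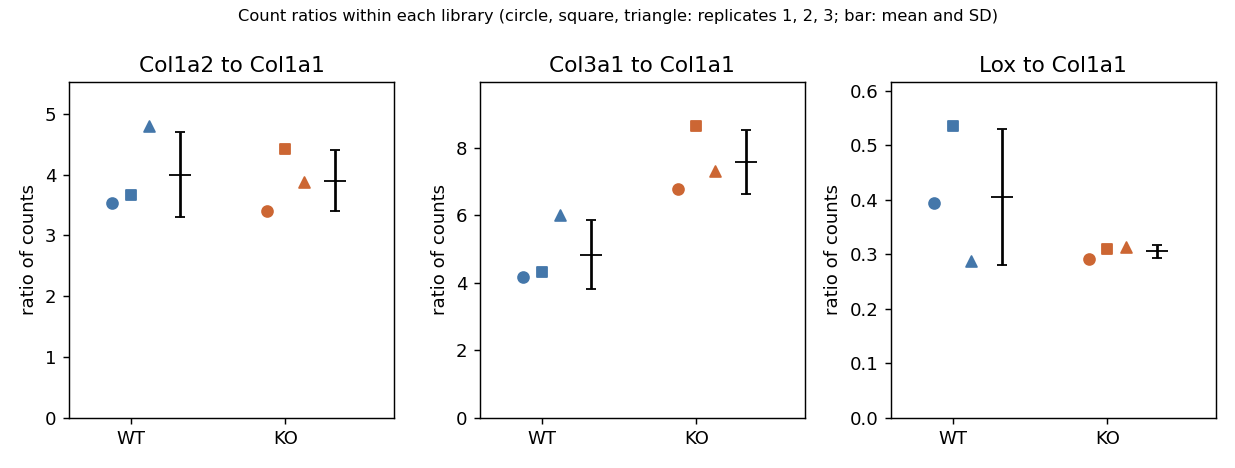
Ratios of counts within each library (vertical axis from 0, no unit) for Col1a2 to Col1a1, Col3a1 to Col1a1 and Lox to Col1a1 in WT (blue) and KO (orange), with black bars for the mean and SD of 3 libraries. Of the 3 ratios, Col3a1 to Col1a1 separates the groups, with a highest WT value of 6.0 and a lowest KO value of 6.78.

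Fn1, the fibronectin gene, did not pass. Its level was 95.5, 91.2 and 97.7 CPM in WT replicates 1, 2 and 3, and 92.5, 74.2 and 80.3 CPM in KO replicates 1, 2 and 3. Of the KO libraries, replicates 2 and 3 lay below all WT libraries, and replicate 1 lay within their range. The mean was 94.8 ± 3.28 CPM in WT and 82.4 ± 9.31 CPM in KO (SD, n = 3 each). The log2 fold change was -0.16 with a 95% interval of -0.36 to 0.04 (adjusted p = 0.27, edgeR). The interval runs from 0.781 to 1.03 of the WT level.

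Sparc did not pass either. It stood at 1951, 1857 and 1900.3 CPM in WT replicates 1, 2 and 3, and at 2275, 1877 and 2044 CPM in KO replicates 1, 2 and 3. KO replicates 1 and 3 lay above the WT range and replicate 2 within it. The mean was 1903 ± 47.1 CPM in WT and 2065 ± 199.5 CPM in KO (SD, n = 3 each), with a log2 fold change of 0.16 and a 95% interval of -0.01 to 0.34 (adjusted p = 0.18, edgeR). Its CV was 2.47% over the WT libraries and 9.66% over the KO libraries.

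In the KO libraries Col1a1, Fn1, Sparc and Lox shared their order, with replicate 1 highest and replicate 2 lowest. KO replicate 1 lay 11.0%, 12.3%, 10.1% and 6.46% above the KO mean of these genes. Col1a2 and Col3a1 had KO replicate 2 as their highest library, 4.43% and 5.07% above their KO means.

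Lox, the crosslinking enzyme, showed no call and the widest relative spread in WT. Its level was 65.8, 78.6 and 30.1 CPM in WT replicates 1, 2 and 3, and 57.8, 50.6 and 54.5 CPM in KO replicates 1, 2 and 3. The KO values lie close together, between WT replicate 3 below them and WT replicates 1 and 2 above them. The mean was 58.2 ± 25.1 CPM in WT and 54.3 ± 3.61 CPM in KO (SD, n = 3 each). The fit put the log2 fold change at -0.05 with a 95% interval of -0.45 to 0.35 (adjusted p = 0.90, edgeR).

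The Lox result turns on WT replicate 3, which held 162 counts, a deviation of -48.3% from the WT mean in CPM. The CV of Lox was 43.2% over the WT libraries and 6.65% over the KO libraries. Without this library the change of Lox was -0.35 on the log2 scale and passed (adjusted p = 0.022, edgeR), and without WT replicate 2 it was 0.23 (adjusted p = 0.50). The same library held the lowest Col1a1 value, at -25.1% from the WT mean, while its Fn1 value stood at 3.02% and its Sparc value at -0.132%. What sets this library apart was not tested.

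The ratio of Lox to Col1a1 counts was 0.393, 0.535 and 0.288 in WT replicates 1, 2 and 3, and 0.292, 0.310 and 0.313 in KO replicates 1, 2 and 3. WT replicate 3 fell just below the KO values, and the other WT libraries lay above them. The means were 0.405 ± 0.124 in WT and 0.305 ± 0.0114 in KO (SD, n = 3 each), with an exact permutation p of 0.4, or 0.6 adjusted over the 3 ratios. The difference of -0.100 became -0.0354 without WT replicate 2 and -0.159 without WT replicate 3.

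Postn, which encodes periostin, fell in KO. It had 12.6, 9.13 and 9.66 CPM in WT replicates 1, 2 and 3, and 3.77, 3.79 and 6.03 CPM in KO replicates 1, 2 and 3. All KO libraries were below all WT libraries, with KO replicate 3 the highest of the KO group. The mean was 10.5 ± 1.86 CPM in WT and 4.53 ± 1.30 CPM in KO (SD, n = 3 each). On the log2 scale the change was -1.15 ± 0.23 (SE; adjusted p = 0.00065, edgeR). The WT level was 2.23-fold the KO level, with a 95% interval of 1.6 to 3.1.

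Postn had the fewest counts of the 7 genes. The WT libraries held 64, 47 and 52 counts and the KO libraries 19, 20 and 31, all whole numbers. The other 6 genes held fractional estimates in 5 or 6 libraries each, so their rows may have exchanged reads with others, which was not tested. From the summed 163 WT and 70 KO counts, each divided by the summed library totals of its group, the KO to WT ratio was 0.434 with a 95% exact (Clopper-Pearson) interval of 0.323 to 0.578, which covers counting error only. With single libraries left out, its log2 fold change was -1.42 to -1.02 and the call held. Among all tested rows 5.41% had a larger fitted fold in either direction, and 2.32% had a lower log2 fold change.

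**Figure D4:**
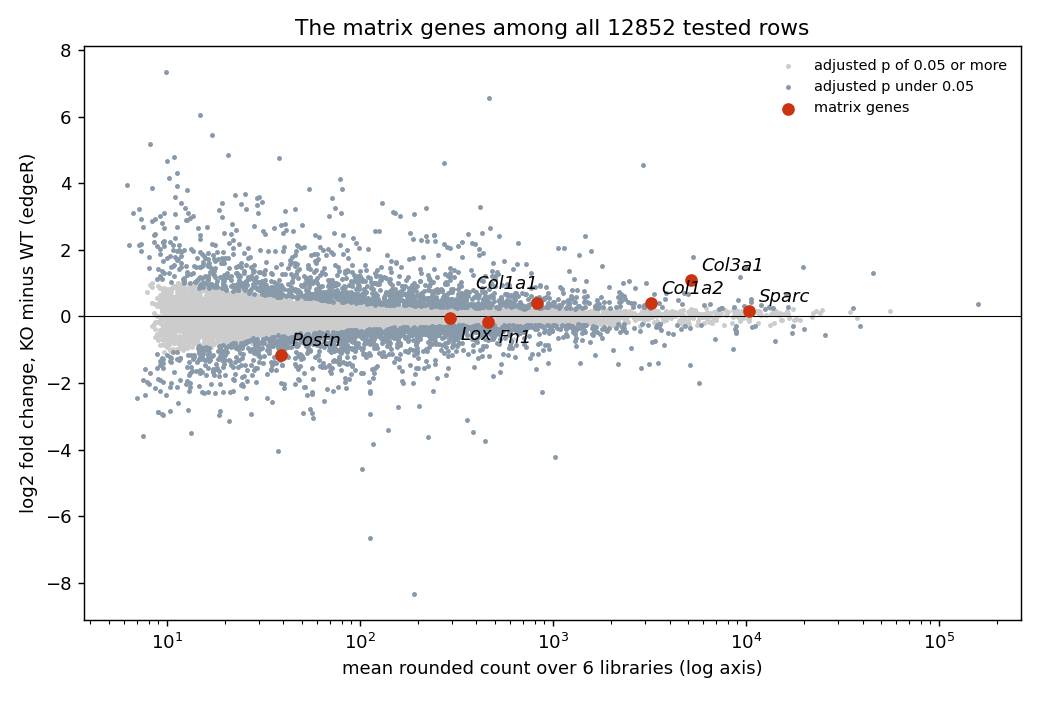
Log2 fold change, KO minus WT, from edgeR (vertical axis) against the mean rounded count over 6 libraries (horizontal log axis) for all 12852 tested rows, with rows past an adjusted p of 0.05 in blue-grey and the 7 matrix genes in red. Postn lies low at a mean count of 38.8, Col3a1 lies high at 5156, and Sparc, with the highest mean count of the 7 at 10269, lies near 0.

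Col1a2 and Postn changed in opposite directions, and stretches of their promoters are shown to set their sequences side by side. RefSeq promoter sequences (GRCr8) were at hand for 3 of the 7 genes, Col1a2, Postn and Sparc. The 250 bases before each annotated start were searched for TATAAA, the core of a TATA box, on the strand of the gene, and for CCAAT, the core of a CCAAT box, on both strands. The matches are in capitals, with 25 bases on each side. The Col1a2 stretch is chr4:33518311-33518417 and the Postn stretch chr2:140677992-140678047, both on the plus strand and printed 5′ to 3′.

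Col1a2: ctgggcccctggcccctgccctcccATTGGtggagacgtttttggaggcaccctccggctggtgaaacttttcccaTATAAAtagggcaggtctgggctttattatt

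Postn: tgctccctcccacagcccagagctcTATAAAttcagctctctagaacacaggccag

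Both windows hold TATAAA, which begins 170 bases before the annotated start in Col1a2 and 44 bases before it in Postn. Col1a2 also holds CCAAT on the other strand, printed as ATTGG and beginning 221 bases before the start. Over all 33469 promoters in the table, 8.06% of windows of this length held TATAAA on the gene strand and 34.0% held CCAAT on either strand. The Sparc window held neither string. These matches describe the letters in the windows and were not tied to the change in expression. Whether TATAAA acts as a TATA box at either of these unlike distances was not tested.

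The rows whose profile over the 6 libraries came closest to the type I collagen genes were sought among 7531 Ensembl rows that averaged 50 counts or more, by the root mean square difference of centred log2(CPM + 1). The nearest to Col1a2 was ENSRNOG00000018683, at a difference of 0.0245. It stood at 63.8 ± 5.99 CPM in WT and 81.0 ± 4.87 CPM in KO (SD, n = 3 each), with a fitted log2 fold change of 0.39. The nearest to Col1a1 was ENSRNOG00000018747, at a difference of 0.0733, with 27.2 ± 6.33 CPM in WT and 33.4 ± 1.91 CPM in KO (SD, n = 3 each). The fit put its change at 0.35 on the log2 scale. Both rows were chosen for this likeness over the same libraries, so their changes are a description and carry no test. Col1a1 and Col1a2 themselves lay 0.176 apart on this measure. The table does not pair these identifiers with gene names.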

How the data were processed

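Total RNA of 6 libraries was made into full-length cDNA with few PCR cycles, per the labels' protocols. The authors deposited estimated counts per gene, not normalized, of which 21.6% are not whole numbers; rows that resemble or overlap each other can therefore exchange reads, collagen paralogs included. The build was mRatBN7.2, per the submitters' processing notes. Aligner, counter and strandedness: not given in the sources used here. Totals were 5037127 to 5385434 counts per library. Gene symbols of the members came with their identifiers. The reference table (GRCr8) paired 0 rows with a symbol, so the wider matrix gene lists and the cell type markers were not run.

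Rounded counts entered edgeR 4.0.16 under R 4.3.3. Rows were filtered by filterByExpr, scaled by TMM and fitted on group only. The quasi-likelihood F test was adjusted by Benjamini-Hochberg across the 12852 rows tested. Standard errors were derived from the log2 fold change and F, and 95% intervals use them. The scripts were tested on simulated data with known changes, drawn at the spread fitted for rows of like counts. Rows with a wider spread, such as Lox in WT, were not covered by that test. As alternatives, DESeq2 1.42.0, limma-voom with limma 3.58.1, other scalings and filters, a replicate block, a stricter threshold and the omission of each library were tried. Ratios used exact permutation tests (SciPy 1.17.1). The named genes are the 7 members, plus the row nearest in profile to each of Col1a1 and Col1a2. The members and lists were chosen with earlier results of these data known.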

Additional observations from a re-analysis of the deposited data

How the results depend on the processing

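Col1a2, Col3a1 and Postn kept their direction and their call under every alternative in which they were tested; Postn drops out where rows must average 50 counts. Col1a2 ranged from 0.34 to 0.44, Col3a1 from 1.04 to 1.12 and Postn from -1.42 to -1.02 on the log2 scale. Fn1 (-0.24 to -0.09) and Sparc (0.10 to 0.23) kept their direction and did not pass in any of them. Col1a1 ranged from 0.25 to 0.53 with single libraries left out, and at an adjusted p of 0.01 its log2 fold change of 0.40 (adjusted p = 0.015) no longer passed. Its call was lost without WT replicate 3 or KO replicate 1. Lox ranged from -0.35 (without WT replicate 3, the alternative under which it passed) to 0.23 with single libraries left out, and its sign also turned with limma-voom (0.057) and with the replicate block (0.011), neither of which passed. Without WT replicate 1 its log2 fold change was 0.03, without WT replicate 2 0.23 and without KO replicate 2 0.0008. The number of the 7 genes past the threshold was 3 or 4 under each alternative. Rows past the threshold numbered 1820 to 2960. Where adjusted p had to be below 0.01, falls dropped from 1321 to 824 and rises from 1409 to 996. Scaling by library size alone, as CPM does, gave 1234 rises and 1633 falls, or 43.0% rises in place of 51.6%. The difference in the Col1a2 to Col1a1 ratio ranged from -0.355 to 0.303 with single libraries left out, the cause of the turned sign not tested. Deviations of same-numbered libraries over all tested rows correlated at -0.017, 0.005 and 0.036. Counting error in rows with few counts enters these values, so they cannot decide whether the libraries were paired. With the replicate block 2960 rows passed, beside 2730 without it, and no call among the 7 genes changed. The block gave Col1a1 an SE of 0.092 in place of 0.116, and Lox 0.129 in place of 0.192. For Col1a2, Fn1 and Postn the SE was slightly larger with the block. Low counts limit Postn, where counting alone gives a coefficient of variation of 20.7% in KO.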
